A study of Mus musculus with 53 samples.

Results

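H3K27ac, a histone acetylation found at active enhancers and promoters, was compared between naive extra-embryonic endoderm cells (nEnd) and embryonic stem cells (ESCs) kept in the naive media 2iLIF and NACL. The comparison used 6 of the 53 libraries of the series, 2 from nEnd, 2 from 2iLIF and 2 from NACL. Every library was held to its 20072 strongest peaks, the number in the smaller nEnd list, and peaks that shared at least 1 bp were merged. Of the 37304 merged regions, 5474 were held by both nEnd libraries and no naive library (nEnd regions, 14.7%), 3275 by all 4 naive libraries and no nEnd library (naive regions, 8.78%), and 5309 by all 6 (shared regions, 14.2%). The other 23246 regions had a mixed pattern.

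The series profiled a mouse ESC line (E14JU) by CUT&RUN, in which an antibody directs a nuclease to chromatin and the released fragments are sequenced. In this line, SGGC, the endogenous SOX2 protein carries GFP and the endogenous GATA6 protein carries mCherry, so that all groups share both reporter alleles. B9 and B12 are separately derived SGGC clones, and each medium had 1 library from each clone. nEnd cells were differentiated from these ESCs and expanded in RACL medium (RPMI with Activin A, CHIR99021 and LIF), 2iLIF contains LIF with inhibitors of MEK and GSK3, and NACL contains Activin A, CHIR99021 and LIF. Other libraries of the series, used below only as independent readouts, came from the same 3 cultures and from ESCs grown in KnockOut Serum Replacement medium (KOSR) and sorted as SOX2+ or as SOX2 and GATA6 double positive (DP). No source used here says whether the clones were grown and processed side by side, and p-values measure the spread between libraries only.

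Primitive endoderm and epiblast are the alternative fates of the inner cell mass of the blastocyst. Epiblast identity, which naive ESCs retain, rests on SOX2, OCT4, NANOG, ESRRB and KLF factors, whereas GATA6 and GATA4 start the endoderm program, followed by SOX17, and endoderm cells then lay down a basement membrane of laminin and type IV collagen. Enhancers of both programs lie mostly away from promoters, carry H3K4me1, gain H3K27ac when active, and are read by factors that recognise short sequences such as the GATA and SOX sites searched here.

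The strongest H3K27ac regions near genes of both programs are shown first, since the results below turn on them. Each sequence is the 300 bp of the plus strand of GRCm38 around the position of strongest signal, with exact matches to 5 strings in capitals on either strand. The strings are AGATAA, the core bound by GATA factors, CATTGT, a core bound by SOX factors, ATGCAAAT, the octamer bound by OCT factors, TCAAGGTCA, bound by ESRRB, and CCACACCC, bound by KLF factors. Windows that overlap an annotated UTR were passed over. The nEnd windows are those of the best ranked region near Col4a1 (chr8:11259886-11260185, in an intron), Foxa2 (chr2:148005396-148005695, intergenic), Sox17 (chr1:4473830-4474129, intergenic) and Gata4 (chr14:63342391-63342690, intergenic).
Col4a1 region: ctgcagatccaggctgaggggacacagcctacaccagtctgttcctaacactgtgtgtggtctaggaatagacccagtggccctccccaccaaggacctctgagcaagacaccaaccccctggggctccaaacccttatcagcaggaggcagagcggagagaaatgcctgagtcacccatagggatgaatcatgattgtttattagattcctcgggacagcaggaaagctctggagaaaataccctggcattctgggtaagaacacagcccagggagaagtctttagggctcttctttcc
Foxa2 region: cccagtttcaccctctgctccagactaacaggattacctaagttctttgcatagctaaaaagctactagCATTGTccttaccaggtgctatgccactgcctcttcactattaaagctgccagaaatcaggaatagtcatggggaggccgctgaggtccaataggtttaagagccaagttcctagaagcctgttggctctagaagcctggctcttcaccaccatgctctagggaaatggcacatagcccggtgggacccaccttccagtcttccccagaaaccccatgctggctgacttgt
Sox17 region: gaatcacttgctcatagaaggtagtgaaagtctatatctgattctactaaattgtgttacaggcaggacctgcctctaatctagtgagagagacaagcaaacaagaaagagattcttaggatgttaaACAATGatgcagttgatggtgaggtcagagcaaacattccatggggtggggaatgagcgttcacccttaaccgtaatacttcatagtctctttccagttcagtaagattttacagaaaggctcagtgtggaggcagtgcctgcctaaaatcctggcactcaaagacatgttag
Gata4 region: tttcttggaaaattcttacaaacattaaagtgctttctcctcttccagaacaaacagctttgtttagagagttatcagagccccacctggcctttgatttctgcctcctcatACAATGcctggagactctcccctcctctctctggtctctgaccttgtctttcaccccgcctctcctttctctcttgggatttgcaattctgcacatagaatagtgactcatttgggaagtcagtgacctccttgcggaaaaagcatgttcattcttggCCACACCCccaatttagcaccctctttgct

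None of these 4 windows held AGATAA within its 300 bp. A further 3 nEnd windows, chosen after their values were seen, show AGATAA in regions with a GATA6 peak in both nEnd libraries. They lie intergenically at Foxa2 (chr2:147961714-147962013), Foxq1 (chr13:31518746-31519045) and Sparc (chr11:55392524-55392823).
Foxa2 distal region: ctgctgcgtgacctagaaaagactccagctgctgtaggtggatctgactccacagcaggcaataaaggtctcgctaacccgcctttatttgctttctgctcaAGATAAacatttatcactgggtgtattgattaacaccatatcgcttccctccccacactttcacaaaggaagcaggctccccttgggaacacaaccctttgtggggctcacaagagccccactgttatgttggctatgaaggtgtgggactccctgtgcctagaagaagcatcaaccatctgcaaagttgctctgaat
Foxq1 region: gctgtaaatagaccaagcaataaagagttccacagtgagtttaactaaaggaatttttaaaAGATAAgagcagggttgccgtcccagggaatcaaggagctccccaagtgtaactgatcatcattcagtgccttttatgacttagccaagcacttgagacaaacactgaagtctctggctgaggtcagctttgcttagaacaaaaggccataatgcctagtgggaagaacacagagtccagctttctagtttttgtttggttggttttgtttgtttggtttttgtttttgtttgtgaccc
Sparc region: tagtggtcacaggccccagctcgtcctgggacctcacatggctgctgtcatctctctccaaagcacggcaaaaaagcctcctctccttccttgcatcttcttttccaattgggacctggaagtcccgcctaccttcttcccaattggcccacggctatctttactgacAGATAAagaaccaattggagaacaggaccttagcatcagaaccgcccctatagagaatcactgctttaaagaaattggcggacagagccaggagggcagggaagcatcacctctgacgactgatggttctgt

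The naive windows are those of Esrrb (chr12:86502601-86502900, in an intron), Nr5a2 (chr1:136954433-136954732, 0.953 kb from a transcription start site, TSS), Sox2 (chr3:34762232-34762531, intergenic, 112 kb from the TSS) and Fgf4 (chr7:144857228-144857527, in an intron of the gene annotated there). The Esrrb window held CATTGT once and the other 3 held none of the 5 strings.
Esrrb region: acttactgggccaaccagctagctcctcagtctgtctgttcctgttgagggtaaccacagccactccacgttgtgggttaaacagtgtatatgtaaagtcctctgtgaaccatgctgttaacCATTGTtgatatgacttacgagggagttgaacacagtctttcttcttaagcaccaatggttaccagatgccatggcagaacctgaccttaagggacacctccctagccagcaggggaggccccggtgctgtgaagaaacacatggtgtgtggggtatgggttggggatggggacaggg
Nr5a2 region: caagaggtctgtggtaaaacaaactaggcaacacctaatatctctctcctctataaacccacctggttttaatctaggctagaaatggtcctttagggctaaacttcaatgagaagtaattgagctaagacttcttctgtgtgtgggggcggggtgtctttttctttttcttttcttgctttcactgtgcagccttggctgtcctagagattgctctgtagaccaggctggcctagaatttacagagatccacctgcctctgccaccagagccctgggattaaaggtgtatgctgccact
Sox2 distal region: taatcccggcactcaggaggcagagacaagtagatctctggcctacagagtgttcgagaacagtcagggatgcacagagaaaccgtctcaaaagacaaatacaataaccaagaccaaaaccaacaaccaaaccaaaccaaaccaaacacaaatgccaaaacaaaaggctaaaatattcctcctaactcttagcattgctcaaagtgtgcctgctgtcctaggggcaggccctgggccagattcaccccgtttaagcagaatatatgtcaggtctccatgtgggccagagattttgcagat
Fgf4 region: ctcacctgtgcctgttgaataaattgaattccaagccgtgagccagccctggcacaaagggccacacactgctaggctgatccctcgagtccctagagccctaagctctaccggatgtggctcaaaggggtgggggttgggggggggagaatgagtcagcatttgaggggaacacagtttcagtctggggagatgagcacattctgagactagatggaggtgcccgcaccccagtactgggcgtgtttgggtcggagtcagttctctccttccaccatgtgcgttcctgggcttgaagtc

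The deposited peak lists differed in length. The nEnd lists held 21394 peaks (B9) and 20072 peaks (B12), whereas the naive lists held between 210904 and 401853. The held peaks were therefore 93.8% and 100% of the nEnd lists and 4.99% to 9.52% of the naive lists. The complete nEnd lists covered 137 Mb and 175 Mb, and the complete naive lists 359 Mb to 588 Mb. The depth of the libraries is unknown, and a difference in peak calling between nEnd and the naive media cannot be told apart from the medium. The names of the naive H3K27ac lists carry a tag that those of nEnd lack, and no source used here explains it. At the margin many naive peaks tied: between 3230 and 4123 peaks had the lowest max signal held (12 or 13), and ties were settled by the summed signal.

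The classes thus describe the strongest peaks and not presence or absence. Of the 5474 nEnd regions, 5090 (93.0%) overlapped a weaker peak in at least 1 complete naive list and 47.5% in all 4. These weaker peaks had a median best rank of 26.9% to 36.7% from the top of their lists. In 384 nEnd regions (7.01%) no naive list had any peak. In the opposite direction 9 naive regions overlapped a complete nEnd list, which hardly reaches past the held peaks. With 1 nEnd library left out, the count of nEnd regions was 9044 without B9 and 9559 without B12, because a region then had to be held by the other one alone.

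Between clones of 1 medium, 73.3% to 81.3% of held peaks overlapped a held peak of the other clone. The share was 69.2% to 75.2% between 2iLIF and NACL. It was 39.3% to 44.5% for nEnd peaks over naive peaks and 44.1% to 53.2% for naive peaks over nEnd peaks. The nEnd libraries thus stood apart from all 4 naive libraries by more than clones or naive media stood apart from each other. The map of region counts shows the 3 classes beside the mixed patterns.

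**Figure D1:**
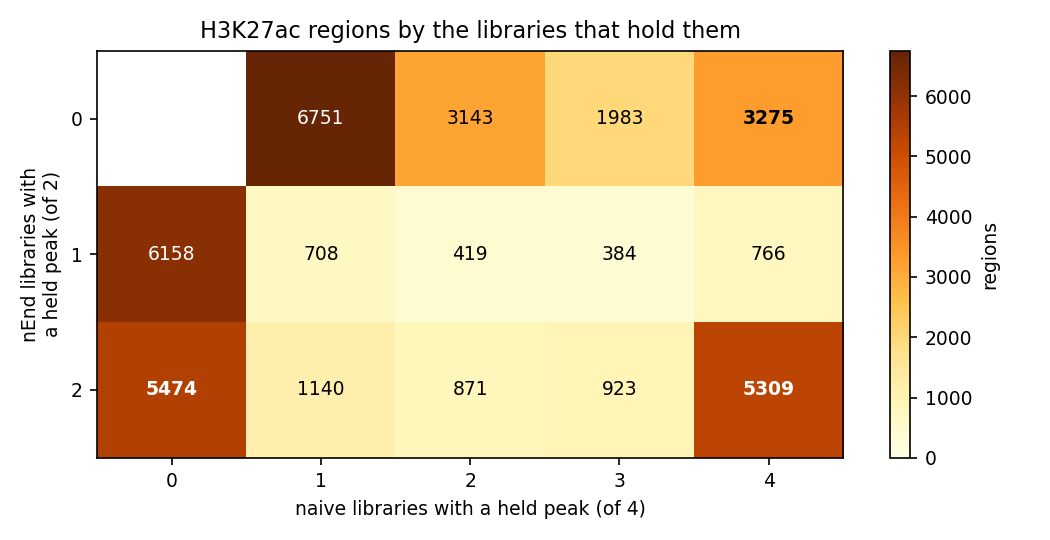
Number of merged H3K27ac regions by how many of the 4 naive libraries (columns) and how many of the 2 nEnd libraries (rows) held a peak there; darker cells hold more regions. The 3 classes in bold hold 5474 (nEnd), 3275 (naive) and 5309 (shared) regions, and 6158 and 6751 regions were held by 1 nEnd or 1 naive library alone.

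The shared regions were wide and promoter-bound, and the other 2 classes were mostly distal. Median widths were 5512 bp for nEnd regions, 7033 bp for naive regions and 14788 bp for shared regions, with quartiles of 3974 to 8546 bp, 4927 to 10353 bp and 8761 to 25058 bp. Widths grow with the number of libraries merged, so single peaks within 1 library are the better guide. Their medians were 4119 and 4769 bp at nEnd regions in the nEnd libraries and 4322 to 4638 bp at naive regions in the naive libraries, which overlap, and 5116 to 8341 bp at shared regions over all 6 libraries. The strongest position lay within 1000 bp of a protein-coding TSS in 686 nEnd regions (12.5%), in 233 naive regions (7.11%) and in 2867 shared regions (54.0%). The median distance to a TSS was 19.2 kb, 30.9 kb and 0.841 kb, respectively. Of the nEnd regions 46.5% had their strongest position in an intron and 37.4% between genes, whereas of the naive regions 38.7% were intronic and 51.9% intergenic. Naive regions thus lay farther out than nEnd regions, with 23.1% against 10.1% beyond 100 kb.

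**Figure D2:**
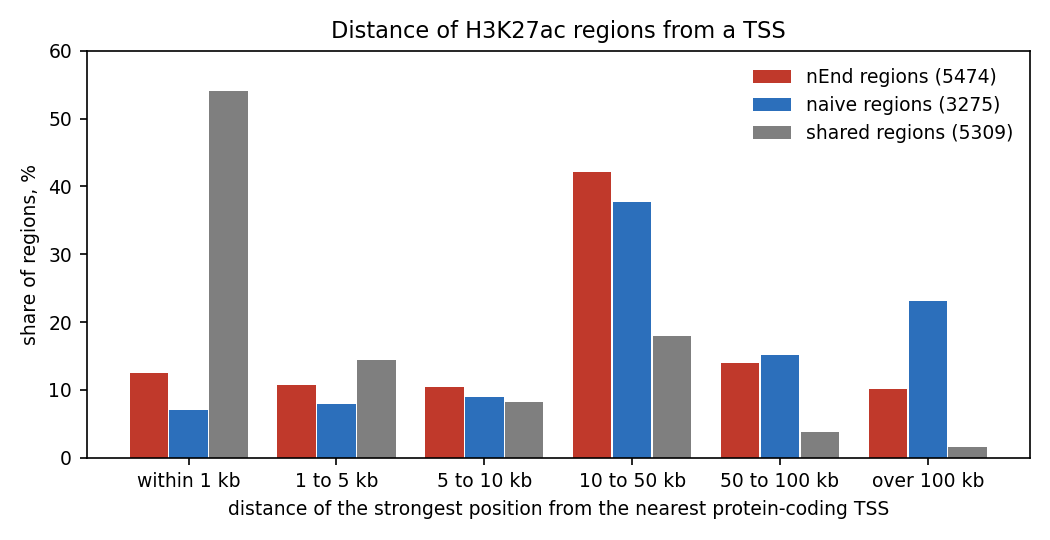
Share of regions of each class (y axis, %) by the distance of the strongest position from the nearest protein-coding TSS (x axis, 6 ranges); bars are nEnd, naive and shared regions. Shared regions peak within 1 kb (54.0%), while nEnd and naive regions peak at 10 to 50 kb (42.1% and 37.8%).

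Taken per library, before any class was formed, the share of held peaks at a TSS and the median width overlapped between nEnd and the naive media, but the TSS share depended on how it was counted. The share of held peaks at a TSS was 28.4% and 27.1% in nEnd B9 and B12. It was 24.9% and 21.8% in 2iLIF and 25.3% and 28.1% in NACL, in the same clone order. NACL B12 lay between the nEnd libraries, and the means were 27.7% ± 0.937 (SD, n = 2) and 25.02% ± 2.56 (n = 4) with p = 0.267 (exact permutation test, two-sided, smallest possible p 0.133). The difference of 2.70 percentage points became 3.47 within 2500 bp of a TSS, 6.67 from the nearest edge of the peak, 5.40 by summed signal and 21.9 with all peaks, each time without overlap and with p = 0.133 (exact permutation test), and it was 0.2 with 10000 peaks held. Median peak widths were 4338 bp and 5453 bp in nEnd, 4041 bp and 4429 bp in 2iLIF, and 4338 bp and 4266 bp in NACL. The nEnd B9 value lay among the naive values and p was 0.4 (exact permutation test), whereas with all peaks the nEnd median exceeded the naive one by 3731 bp without overlap (p = 0.133, exact permutation test). Ranked by summed signal the width difference was -55.2 bp, and without nEnd B12 it was 69.2 bp, against 627 bp otherwise. The held peaks covered 130 Mb and 175 Mb in nEnd against 103 Mb to 117 Mb in the naive libraries, without overlap between the groups, and p was 0.133 (exact permutation test), the smallest that 2 against 4 libraries can give.

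Ranked by their weaker nEnd library, the 12 strongest nEnd regions lay near Rhou, Col4a1, Slco3a1, Gsn, Palld, Krt8, Podxl, Foxa2, Zmiz1, Ppm1d, Stra6 and Tbc1d16. Among these genes Krt8 encodes a keratin of simple epithelia, Podxl a sialomucin of the apical surface and Gsn an actin-severing protein. The Krt8 region (chr15:102010164-102019424) ranked 38 and 104 in nEnd B9 and B12. The Podxl region (chr6:31610136-31626976) ranked 75 and 165. Stra6, the receptor through which cells take up retinol, had its region at a TSS (chr9:58129104-58142199) with ranks of 51 and 283. A GATA6 peak lay in both nEnd GATA6 libraries at 11 of the 12, against 61.4% of all nEnd regions, and in 1 library at Tbc1d16. All 12 also overlapped weaker peaks in at least 1 complete naive list.

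Col4a1, which encodes a type IV collagen chain of basement membranes, stood out by extent. Its nEnd region (chr8:11194174-11455181) spanned 261008 bp, the widest of its class, and ranked 18 in nEnd B9 and 16 in nEnd B12. It covers both Col4a1 and the divergent Col4a2, so the latter, with no region of its own by nearest TSS, gained this one when genes with a TSS within the region were counted. The next widest nEnd regions lay near Runx1 (93977 bp) and Chst15 (93888 bp).

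The strongest naive regions were listed in the same way. The 12 with the best rank in their weakest naive library lay near Mcc, Zfp808, Scn3b, Zfp981 (2 regions), Zfp600, Cntnap5a, Cga, Aga, Mga, Wnk1 and Tmem64. Zfp808, Zfp981 and Zfp600 belong to zinc finger gene clusters with near-identical copies, where reads cannot be assigned with certainty. The regions near Cntnap5a and Aga lay 1722 kb and 1156 kb from the nearest TSS, so the gene name there is only the closest annotation. SOX2 peaks lay in all 4 naive SOX2 libraries at 8 of the 12, against 36.5% of all naive regions. At none of the 12 did an nEnd library have a GATA6 peak, which also held for 89.7% of all naive regions. The widest naive region, 53868 bp, lay in Esrrb.

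Some loci gathered many regions of 1 class. Maml3, which encodes a coactivator of Notch signalling, had 17 nEnd regions over 422 kb and none of the other classes. Chd6, a chromatin remodeller, had 11, Adamts9, an extracellular protease, had 10, and Tcf7l2, a Wnt effector, and Tgfbr2, a TGF-beta receptor, had 9 each. On the naive side Cntnap5b had 16 regions, spread over 2961 kb of a gene-poor stretch. Gli2, a Hedgehog effector, had 9 naive regions within 284 kb, and 1810013L24Rik, Cdh20 and Plcb4 had 8 each. None of these 5 loci held an nEnd region, whereas Tcf7l2 had 1 and Tgfbr2 had 3 naive regions. Of the 10 loci Maml3, Cntnap5b, Gli2 and Cdh20 held a single class, and the other 6 held 1 to 4 regions of other classes.

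Endoderm transcription factors held the densest group of nEnd regions among the gene lists. A peak or region is counted for the gene with the nearest TSS, so a gene without one may still lie close to a peak counted for its neighbour. Ranks order the peaks within 1 library, and since the lists differ in length they do not measure strength between libraries. Of the 9 genes 7 had at least 1 nEnd region, against 16.1% of all 21829 protein-coding genes, and together they had 25. A naive region was nearest to 1 of the 9 (10.3% of all genes) and a shared region to 2 (21.3%). Under the alternative rule that a TSS lies in a region or within 10000 bp of it, 5 of the 9 had an nEnd region. By this rule the shares of all genes were 11.4% for nEnd regions, 4.99% for naive regions and 30.9% for shared regions. At 20 of the 25 nEnd regions both nEnd GATA6 libraries had a peak (61.4% of all nEnd regions), 10 held AGATAA (43.1% of all) and 3 were at a TSS (12.5% of all), so the last 2 counts were near the general share.

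Gata4, a zinc finger factor that acts beside GATA6, had 1 nEnd region 70.8 kb from its TSS, ranked 236 in B9 and 3222 in B12, and no held peak in any naive library. Sox17, which maintains the endoderm program, had 6 nEnd regions between 0.152 and 101 kb from a TSS, and its strongest (chr1:4469880-4482978) ranked 317 and 201 in nEnd. Foxa2, a pioneer factor of endoderm, had 5 nEnd regions. The largest of these (chr2:147973575-148048190, 74616 bp) ranked 175 and 163, and the only naive library with held peaks nearest to Foxa2 was NACL B12, the best of them at rank 5725. Foxq1, a forkhead factor, had 7 nEnd regions, the most of any list gene, spread between 37.2 and 276 kb from its TSS. Its best peak ranked 991 and 92 in nEnd and 8830, 6715, none and 12025 in the naive libraries. Hnf4a, a nuclear receptor of endoderm, had 1 nEnd region at its TSS (chr2:163505603-163508897) ranked 4419 and 11518, and a shared intronic region as well.

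Gata6 itself carried H3K27ac in both states. It had 2 nEnd regions 104 and 116 kb from its TSS, ranked 107 and 434 and 431 and 170 in B9 and B12, together with 2 shared regions. Its best peak ranked 107 and 170 in nEnd, 8017 and 7616 in 2iLIF, and 7815 and 4671 in NACL. These ranks did not overlap, but they come from the libraries that formed the classes and do not compare strength between libraries. Sox7, a relative of Sox17, had a held peak in both nEnd libraries at ranks 18140 and 16104 and in no naive library, but these peaks did not lie in a region of the nEnd class. Hhex, a homeobox gene of anterior visceral endoderm, went the other way. It had a naive region (chr19:37485494-37490476) with ranks of 1978, 6882, 1534 and 4714, 1 nEnd library with a peak at 19105, and none in nEnd B9.

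The basement membrane genes were mixed, with nEnd regions at 3 of 10 genes (16.1% of all genes), naive regions at 2 (10.3%) and shared regions at 4 (21.3%). With a TSS in the region or within 10000 bp the counts were 3, 1 and 4, beside 11.4%, 4.99% and 30.9% of all genes. Lamc1, a laminin chain, was acetylated in every library, with best ranks of 34 and 14 in nEnd and 155 to 812 in the naive libraries. Sparc, a matrix glycoprotein, had a shared region of 68547 bp ranked 109 and 51 in nEnd and 5741 to 8762 in the naive libraries, plus an nEnd region with 2 AGATAA matches. At Lama1, the laminin alpha chain made by endoderm, the best peak ranked 68 and 153 in nEnd and 3670, 3635, none and 18555 in the naive libraries. Hspg2 (perlecan) ranked 414 and 499 and Serpinh1, a collagen chaperone, 388 and 1407 in nEnd. In the naive media a held peak at either gene was found in NACL B12 alone, at 5999 and 19236. Neither gene had an nEnd region by nearest TSS, but an nEnd region assigned to another gene lay within 10000 bp of an Hspg2 TSS or over it.

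Genes of endocytosis and the cell surface had nEnd regions at 4 of 5 (16.1% of all genes), and at 3 of 5 with a TSS in the region or within 10000 bp (11.4%). Naive regions lay at 2 of the same 5 (10.3% of all genes), Dab2 and the endocytic receptor Lrp2, both of which also had nEnd regions. By the alternative rule they lay at Lrp2 alone (4.99% of all genes). Pdgfra, a surface receptor that marks primitive endoderm, had 4 nEnd regions, with best ranks of 539 and 949 in nEnd and no held peak in any naive library. Cubn, a receptor of the endocytic cubilin complex, had its best peak at 824 and 91 in nEnd and, of the naive libraries, a held peak in NACL B12 alone (9341), and no region of a class. Its partner Amn had 1 nEnd region with weak ranks of 17604 and 13723. Dab2, an endocytic adaptor of endoderm, had 3 nEnd and 2 naive regions. Its naive regions lay 308 and 404 kb away, and its best peak ranked 2514 and 494 in nEnd and 145 to 364 in the naive libraries. The naive ranks come from a shared region 268 kb from the TSS, whereas the nEnd regions lay 14.3 to 51.0 kb from it. Among the 10 secreted products Ttr (2) and Plat (1) had nEnd regions and Apob had a naive region, which is near the general shares of 16.1% and 10.3%. With a TSS in the region or within 10000 bp, 3 had an nEnd region and 0 a naive region, beside 11.4% and 4.99% of all genes. Afp, a marker of visceral endoderm, Apoa1, Rbp4, Trf and Thbd had no held peak nearest to them in any of the 6 libraries, although an nEnd region assigned to another gene lay within 10000 bp of a Thbd TSS or over it.

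Of the naive pluripotency genes, 7 of 14 had a naive region (10.3% of all genes), 17 in all, 8 a shared region (21.3%) and 3 an nEnd region (16.1%), the last near the general share. With a TSS in the region or within 10000 bp the counts were 3, 8 and 1, beside 4.99%, 30.9% and 11.4% of all genes. Esrrb, an orphan receptor of the naive network, had a naive region (chr12:86461594-86515461) ranked 1335, 1191, 750 and 1284 in 2iLIF B9 and B12 and NACL B9 and B12. Neither nEnd library had a held peak nearest to Esrrb. Fgf4, the ligand by which epiblast signals to endoderm, had 2 naive regions, best ranked 1228, 578, 510 and 1330, and likewise no held nEnd peak. Nr5a2 had 6 naive regions, the most of any list gene in that class, with best ranks of 3177, 1272, 4587 and 4414, against none and 9209 in nEnd. Zfp42 (Rex1) and Prdm14 had 3 each. These ranks come from the libraries that formed the classes and are descriptions.

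Several other naive pluripotency genes had held H3K27ac peaks in both nEnd libraries. Tfcp2l1 had 3 shared regions and ranked 180 and 406 in nEnd beside 5 to 54 in the naive libraries. Tbx3 had 3 shared regions, with ranks of 961 and 600 in nEnd that overlapped the naive range of 124 to 926. Klf4 had 3 nEnd and 2 shared regions and Klf5 2 nEnd, 1 naive and 3 shared regions. Both genes thus had held nEnd peaks besides the positions held in all 6 libraries. Each of these nEnd regions had a weaker peak in at least 1 complete naive list. Nanog had 1 shared region and 1 naive region, and its best peak ranked 15784 and 12042 in nEnd against 306 to 8631 in the naive libraries. Dppa3 had no class region, Nr0b1 no held peak, and Klf2 and Tdgf1 a shared region each.

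Among the core pluripotency genes Sox2 had 4 naive regions, and no nEnd library had a held peak nearest to it. The strongest (chr3:34742327-34767825) lay 112 kb downstream of the TSS with ranks of 621, 1356, 4960 and 1569, and a distal control element downstream of Sox2 is known to drive its expression in ESCs. In this region 4 of 4 naive SOX2 libraries had a peak, and so did both nEnd GATA6 libraries. Pou5f1 (OCT4) had a shared region with ranks of 3644 and 1426 in nEnd and 834 to 3747 in the naive libraries, and the groups overlapped. Sall4 had 1 nEnd and 1 shared region, and its best peak ranked 923 and 477 in nEnd and 2896 to 8789 in the naive libraries. Lin28a ranked 6092 and 2178 in nEnd and, of the naive libraries, only NACL B12 had a held peak nearest to it (5673), while a shared region assigned to another gene lay within 10000 bp of a Lin28a TSS or over it.

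**Figure D3:**
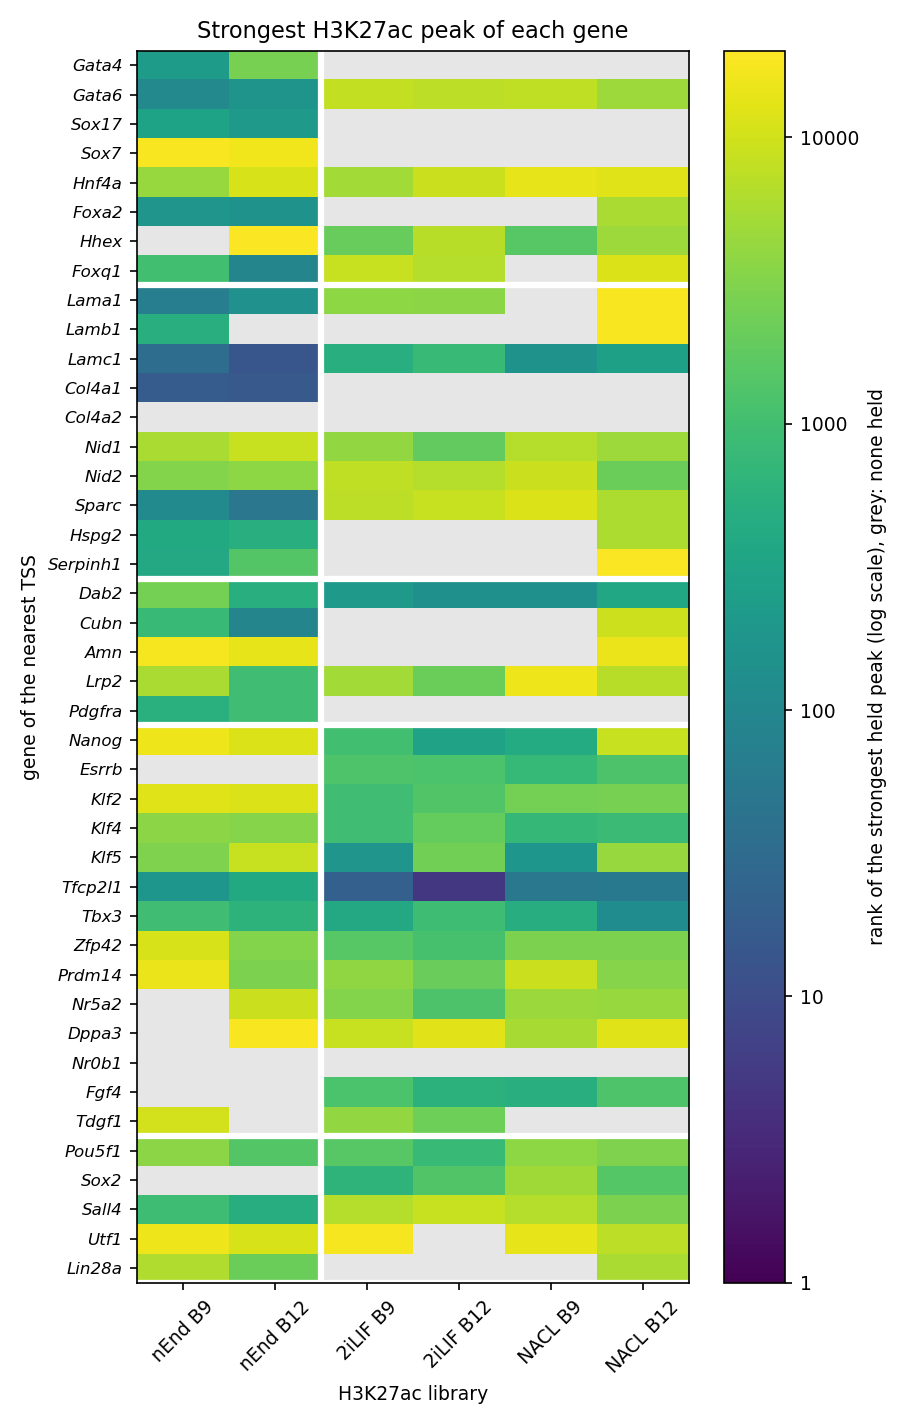
Rank of the strongest held H3K27ac peak nearest to each gene drawn (rows, grouped by list with white lines between lists) in the 6 libraries (columns); colour gives the rank on a log scale, dark for the strongest, grey where no held peak was nearest to the gene. Col4a1, Gata4, Sox17 and Pdgfra are grey in all 4 naive libraries, and Esrrb, Fgf4 and Sox2 in both nEnd libraries.

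RACL and both naive media contain LIF. Of 8 genes of its pathway 5 had a shared region (21.3% of all genes), among them the receptor subunit Il6st (3), Stat3, Pim1 and Pim3. By the alternative rule 4 did (30.9% of all genes), and Pim1 did not. Socs3 and Junb had held peaks in nEnd and NACL but in neither 2iLIF library, and Gbx2 had none in nEnd or 2iLIF B12. Lifr, the LIF receptor, had 6 nEnd regions besides 1 shared region. The strongest of these (chr15:7033052-7051236) ranked 1904 and 1893 in nEnd. Its best peak ranked 377 and 815 in nEnd and 218 to 1414 in the naive libraries, so the groups overlapped at the best peak while further nEnd regions lay around the gene. Of the ERK response genes 4 of 8 had an nEnd region and 4 a shared one by nearest TSS, beside 16.1% and 21.3% of all genes. With a TSS in the region or within 10000 bp the counts were 1 and 2, near the general 11.4% and 30.9%. Egr1, an immediate early gene, had an nEnd region at a TSS ranked 8161 and 11112 and no held naive peak. Etv5 had a naive region as well and ranked 15232 and 8903 in nEnd against 431 to 1549 in the naive libraries.

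Lists for other cell types were read beside the general shares of 16.1%, 10.3% and 21.3% for nEnd, naive and shared regions, from which lists this short can hardly depart downward. No mesoderm or neural gene (of 6) had a region of any class, and of 5 fibroblast genes Col1a2 alone had a naive region, ranked 2830 to 19400. Of 6 trophoblast regulators Elf5 (3), Cdx2 and Gata3 had nEnd regions (16.1% of all genes) and Tfap2c a naive region (10.3%). By the alternative rule 2 and 0 genes did (11.4% and 4.99%). Elf5 and Cdx2 had no held peak in any naive library, with best ranks of 1546 and 4067 and of 7046 and 6068 in nEnd. Housekeeping genes had shared regions at 4 of 8 by nearest TSS (21.3% of all genes) and at 7 with a TSS in the region or within 10000 bp (30.9%), and Tbp had an nEnd region near a gene that 3 naive libraries also held. Each of these lists holds few genes, and a gene nearest to a region need not be its target.

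The GATA and SOX strings were more frequent in nEnd peaks, and the OCT and ESRRB strings in naive peaks, within 500 bp around the strongest position. AGATAA lay in 35.9% and 33.1% of held peaks in nEnd B9 and B12, in 25.3% and 25.4% in 2iLIF and in 24.3% and 24.3% in NACL. CATTGT lay in 33.4% and 30.8% in nEnd and in 23.7% to 24.4% in the naive libraries. ATGCAAAT lay in 2.12% and 2.56% in nEnd and in 3.35% to 3.72% in the naive libraries, and TCAAGGTCA in 1.09% and 1.32% against 2.25% to 2.85%. The groups did not overlap for these 4 strings, and each gave p = 0.133 (exact permutation test, two-sided, smallest possible), or 0.167 after Benjamini-Hochberg adjustment over 5 strings. Within clones the p was 0.222, again the smallest possible. CCACACCC did not separate the groups, at 6.96% and 5.58% in nEnd and 5.50% to 6.92% in the naive libraries (p = 0.8, exact permutation test).

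The AGATAA share was about the same at all strengths. In nEnd B9 it was 36.4% of the 5018 strongest and 35.5% of the 5018 weakest held peaks, and in NACL B9 22.7% and 24.2%. Across classes AGATAA lay in 43.1% of nEnd regions (exact binomial 95% interval 41.8% to 44.4%), in 26.2% of naive regions (24.7% to 27.7%), in 24.8% of shared regions and in 31.3% of all merged regions. CATTGT, which SOX2 and SOX17 can both bind, showed the same order with 39.6%, 27.1% and 22.7%, beside 30.1% of all merged regions. Among regions away from a TSS, AGATAA lay in 46.2% of nEnd and 26.7% of naive regions, and at a TSS in 21.4% and 19.7%, so the classes differed mostly at distal regions. ATGCAAAT lay in 2.17% of nEnd, 4.43% of naive and 3.33% of all regions, TCAAGGTCA in 1.08%, 3.39% and 2.03%, and CCACACCC in 6.49%, 5.50% and 6.09%. Both the OCT and the ESRRB string were thus most frequent in naive regions. These shares are descriptions, since regions of 1 genome are not replicates of a culture, and intervals cover counting error only.

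**Figure D4:**
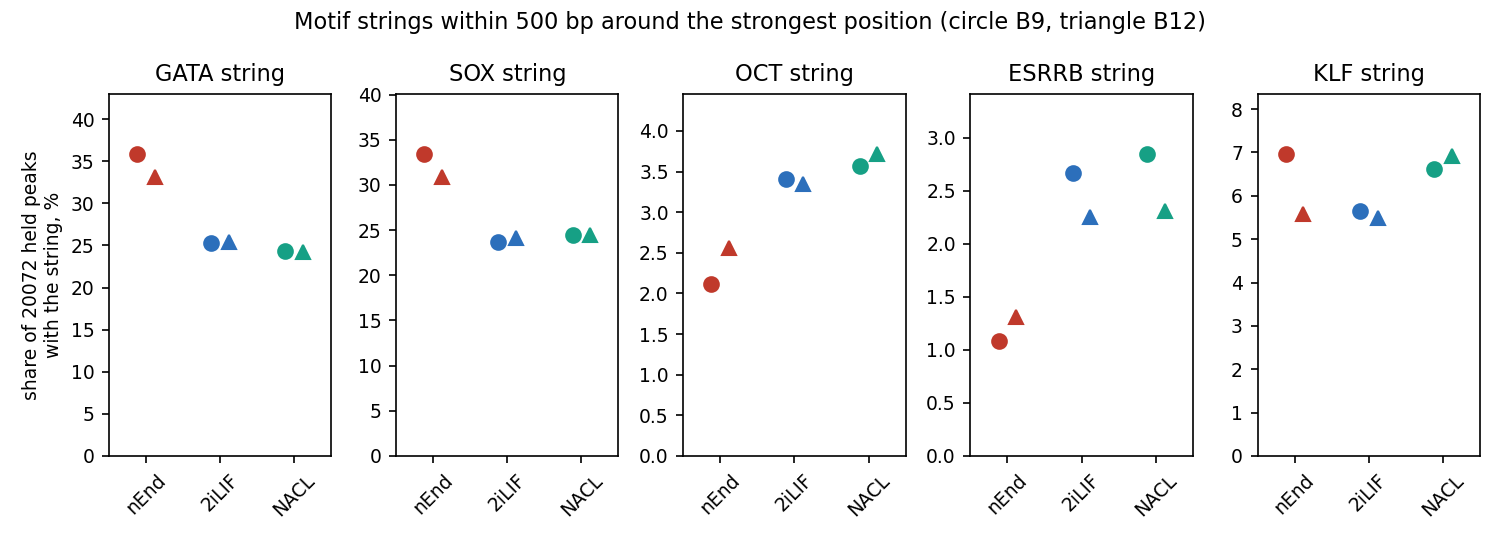
Share of the 20072 held H3K27ac peaks with each motif string within 500 bp around the strongest position (y axes, %, each from 0), by medium; circles are clone B9 and triangles clone B12. The GATA and SOX strings are higher in both nEnd libraries than in all 4 naive libraries, the OCT and ESRRB strings lower, and the KLF string overlaps.

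H3K4me1, which marks enhancers whether or not they are active, was read from libraries that had no part in forming the classes, each held to 18627 peaks. It covered 55.7% and 54.7% of nEnd regions in the 2 nEnd libraries (both clone B9) and 8.77% to 14.01% in the 4 naive libraries. Of naive regions it covered 12.1% and 11.8% in nEnd and 46.0% to 65.3% in the naive libraries. The nEnd share minus the naive share was 43.3 percentage points ± 0.486 (SD, n = 2) in nEnd and -43.2 ± 10.1 (n = 4) in the naive libraries, with p = 0.133 (exact permutation test, the smallest possible), or 0.2 adjusted over 3 antibodies. The libraries of each state thus followed the H3K27ac class of their own state. Shared regions were covered at 64.2% and 53.9% in nEnd and 47.5% to 55.6% in the naive media, with overlap. In the complete lists 3206 nEnd regions (58.6%) had no H3K4me1 peak in any naive library, and 383 naive regions (11.7%).

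GATA6 peaks concentrated in nEnd regions in nEnd cells and less so in DP cells, which express GATA6 beside SOX2. With 1391 peaks held per library, 9.10% and 8.33% of nEnd regions had a peak in nEnd B9 and B12, and 2.996%, 3.014% and 2.393% in the DP libraries. Naive regions had a peak in 0.0916% in either nEnd library and in 1.62%, 1.59% and 1.92% in DP. The difference between classes was 8.62 ± 0.543 percentage points in nEnd (SD, n = 2) and 1.09 ± 0.539 in DP (n = 3), with p = 0.2 (exact permutation test, the smallest possible for 2 against 3; 0.2 adjusted over 3 antibodies). The groups did not overlap. DP libraries were all clone B12. Within that clone the difference was 8.24 in nEnd and 1.38, 1.43 and 0.469 in DP, so the gap was about as large. The labels give experiment codes for DP and none for nEnd, so a difference between experiments cannot be told apart from cell state. The complete GATA6 lists held 24223 and 32510 peaks in nEnd and 8316, 3821 and 1391 in DP. How far list length enters this gap was not tested.

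In the complete GATA6 lists 3362 of 5474 nEnd regions (61.4%) had a peak in both nEnd libraries, against 138 naive regions (4.21%) and 2538 shared regions (47.8%). Away from a TSS the share was 65.3% of nEnd and 62.5% of shared regions, and at a TSS 34.1% and 35.3%. Split by position in this way, nEnd and shared regions were thus close. nEnd regions with GATA6 in both libraries held AGATAA in 53.5%, and those with no GATA6 peak in 25.3%. Of the 332 nEnd regions with a GATA6 peak in at least 2 of 3 DP libraries, 327 (98.5%) also had 1 in both nEnd libraries. So did 616 of 671 such shared regions (91.8%) and 47 of 152 such naive regions (30.9%). The shares over all regions of these classes were 61.4%, 47.8% and 4.21%. In each class, regions with GATA6 in DP cells thus had it in both nEnd libraries more often than the class as a whole.

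SOX2 showed the reverse preference in every library. With 1378 peaks held, SOX2 lay at 9.80% to 12.6% of naive regions and 0.292% to 0.566% of nEnd regions in the 7 libraries of 2iLIF, NACL and KOSR SOX2+ cells. In the 3 DP libraries it lay at 7.66%, 7.42% and 9.01% of naive regions and at 0.968%, 0.986% and 0.621% of nEnd regions. The difference between classes was -7.17 ± 1.06 percentage points in DP (SD, n = 3) and -10.5 ± 1.06 in the other libraries (n = 7), a gap of 3.30 points with p = 0.0167 (exact permutation test, two-sided, the smallest possible). Adjusted over 3 antibodies this was 0.05, which is not below the threshold of 0.05. Within the experiments labelled A, A1 and B, DP exceeded its KOSR SOX2+ partner by 3.35, 2.89 and 0.904 points. The mean was 2.38 with p = 0.25 (exact permutation test within experiments, the smallest that 3 pairs can give). No source used here says whether A and A1 were separate sorts. If they were not, n = 3 and the 3 pairs overstate the replication. The DP lists were the shortest (1378 to 5320 peaks against 8203 to 29623), and with all peaks the gap was 26.9 points. The part of list length in the gap was not tested. In the complete lists all 4 naive SOX2 libraries had a peak at 1196 naive regions (36.5%) and at 133 nEnd regions (2.43%).

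H3K27ac of KOSR cells was compared with no test, since there was 1 DP library. With 13514 peaks held, the 2 SOX2+ libraries covered 1.81% and 1.72% of nEnd regions, 49.0% and 48.3% of naive regions and 74.3% and 71.4% of shared regions. The DP library covered 4.37%, 40.7% and 74.2%. Values of the DP library thus lay on the nEnd side of both SOX2+ values in the 2 specific classes and with them in the shared class at equal peak numbers. With all peaks, of which the DP list had 76260 and the SOX2+ lists 13514 and 14722, DP covered 32.6% of nEnd and 80.2% of naive regions. The SOX2+ lists covered 1.81% and 2.10% of nEnd regions and 49.0% and 49.7% of naive regions. The difference between these classes was then about equal, at -47.6 points in DP and -47.4 in SOX2+. Lists of such unequal length cannot show whether a gap remains.

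**Figure D5:**
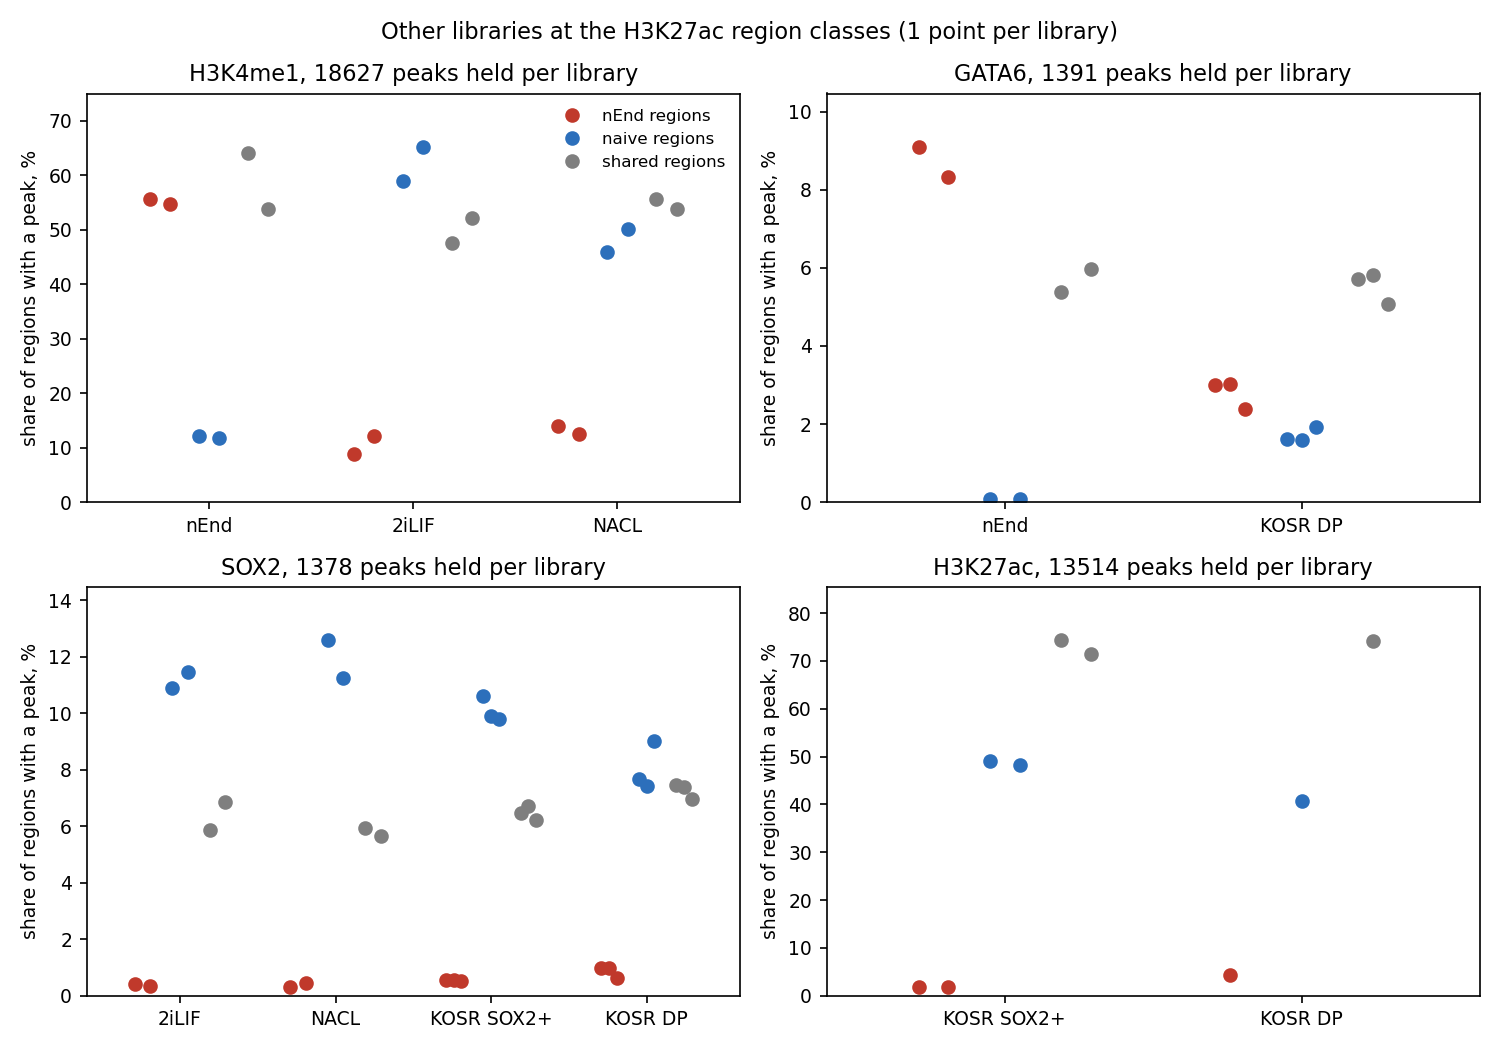
Share of nEnd (red), naive (blue) and shared (grey) H3K27ac regions that had a peak (y axes, %) in each library of H3K4me1, GATA6, SOX2 and KOSR H3K27ac, with 1 point per library and equal peak numbers within each panel. H3K4me1 changes sides between nEnd (55.7% and 54.7% of nEnd regions) and the naive media (8.77% to 14.01%), and SOX2 stays below 1% of nEnd regions in all 10 libraries.

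The 384 nEnd regions without any naive peak were narrower and more distal. A narrow region has less chance to overlap a naive peak, so the choice of this subset bears on its width. Their median width was 3952 bp against 5663 bp for the other 5090, and 5.21% against 13.1% were at a TSS. GATA6 lay in both nEnd libraries at 70.6% against 60.7%, and AGATAA in 49.5% against 42.6%. Of the list genes described, Foxq1, Pdgfra, Sall4 and Cdx2 had a region of this subset, whereas at Col4a1, Gata4, Sox17 and the strongest Foxa2 region weaker naive peaks were listed.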

How the data were processed

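CUT&RUN libraries of SGGC clones B9 and B12 were analysed from the peak lists as deposited, 1 list per library. Per the labels and the study's methods, the authors used cutadapt 1.18 for trimming, Bowtie2 2.3.4.1 for alignment to mm10 (GRCm38), SAMtools 1.9, Picard 2.9.1, bedtools 2.27.1 and deepTools 3.2.0, and SEACR for peak calling, whose version is not stated. The deposited values are a summed signal and a max signal of coverage per peak. Signal scales are not comparable between libraries, so ranks within a library were used. The names of the lists give the relaxed mode of SEACR for histones and the stringent one for factors, whereas the methods state the reverse. IgG libraries have no list here, 2 KOSR lists with conflicting labels were left out, and the KOSR H3K4me1 lists were not used. The depth per library is unknown.

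With Python 3.11.15, NumPy 2.4.6, SciPy 1.17.1 and pandas 2.3.3, peaks on the 19 autosomes, X and Y were ranked by max signal, held to equal numbers, merged at 1 bp and assigned to the nearest protein-coding TSS of GENCODE M21. The 5 strings were searched in 500 bp of GRCm38, both strands included, and matches of different strings may overlap. Regions of chromosome 18 were analysed but their sequences are not printed. Region counts, list counts and class shares carry no test. Values per library were compared by exact permutation tests, two-sided at 0.05, with Benjamini-Hochberg adjustment over 5 strings or 3 antibodies. B9 and B12 are the same cell lines in each medium, so clone pairs the libraries, and permutations within clone were run as well. Deviations of the clones correlated at 0.0186, 0.00145 and 0.0450 between media. Region classes, gene lists and motif strings were chosen with earlier results of these data known. Genes were named from the gene lists, the 12 best ranked nEnd and naive regions, the 5 genes with most of either and the widest regions. Some list members without a region of a class were named as well. Some list members, counted in the lists, are not reported here by name. The merging, class, motif and test steps were tested on simulated data. Alternatives covered the ranking signal, the number held, the peak extent, the media compared, TSS and motif windows, gene assignment and each library left out. A near-identical copy of a gene or region can share reads.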

Additional observations from a re-analysis of the deposited data

How the results depend on the processing

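The region counts depend on how many peaks are held. With 10000 peaks held, 3019 nEnd, 1801 naive and 2395 shared regions were found, and with all peaks 390, 49202 and 10885, since the naive lists are longer. With 500 bp on each side of the max-signal position in place of whole peaks the shared count was 2782. Naive regions numbered 5525 against 2iLIF alone and 5472 against NACL alone. Requiring no peak in any complete naive list, an alternative added after seeing the data, left 384 nEnd regions. Leaving out 1 library at a time gave 5686 to 9559 nEnd, 3477 to 4030 naive and 5499 to 5908 shared regions.

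The nEnd minus naive difference in median width was -55.2 bp when peaks were ranked by the summed signal, against 627 bp by max signal, and 69.2 to 1185 bp with 1 library left out. The KLF string difference of 0.105 percentage points ranged from -0.588 to 0.797 with 1 library left out. The KLF difference was small against the spread between libraries (SD 0.979 in nEnd and 0.704 in the naive libraries). The width difference of 627 bp was below the SD of nEnd (789 bp) but above that of the naive libraries (166 bp). The cause was not tested. All other test results kept their direction, and none was below 0.05 by adjusted p under any alternative run. With all peaks the TSS share difference was 21.9 points (2.70 with equal numbers), the width difference 3731 bp, the SOX2 difference 26.9 points (3.30) and the GATA6 difference 59.5 points (7.53). With 1 library left out the SOX2 difference ranged from 2.93 to 3.91 points. Its unadjusted exact permutation p ranged from 0.0238 to 0.0556, the latter without any 1 of the DP libraries. Each was the smallest p that the remaining libraries can give, so the value above 0.05 was set by their number. With the replicate block, that is permuting within clone, the p was 0.444 for TSS share, 0.444 for width, 0.222 for the GATA, SOX, OCT and ESRRB strings and 0.889 for the KLF string, and no call changed. Pairing DP with KOSR SOX2+ libraries of the same experiment label, added after seeing the data, gave a SOX2 difference of 2.38 points (p = 0.25, exact permutation test with this block, and 0.25 adjusted over 3 antibodies). No permutation within clone was run for H3K4me1 and GATA6, whose groups share fewer than 2 clones. In clone B9 the H3K4me1 difference between classes was 43.6 and 42.9 points in nEnd, -50.2 in 2iLIF and -32.0 in NACL.

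Counting a gene when a TSS lay in a region or within 10000 bp of it gave naive regions at 2 genes of the endoderm lists (6 by nearest TSS) and at 5 of the pluripotency lists (9), and nEnd regions at 1 of the pluripotency lists (4). Over all lists it gave 20 genes with nEnd regions (31) and 7 with naive regions (19). Without any naive peak in the complete lists, nEnd regions remained at 3 genes of the endoderm lists, 1 of the pluripotency lists and 5 of all lists. With all peaks of the KOSR H3K27ac lists, also added after seeing the data, the nEnd minus naive share was -47.4 points in SOX2+ and -47.6 in DP. At equal peak numbers it was -46.9 and -36.3. The complete DP list was far longer than the SOX2+ lists, so the values with all peaks cannot show whether a gap remains.

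Depth is unknown, and 2 against 4 libraries cannot reach 0.05, so p-values there carry no more than the absence or presence of overlap.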
